A study of Mus musculus with 4 samples.

Results

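Glypicans and syndecans are cell-surface proteoglycans, core proteins that carry heparan sulfate chains. Peaks of the RNA helicase DHX9 were examined in the genes of 4 glypicans (Gpc1, Gpc2, Gpc5 and Gpc6) and 4 syndecans (Sdc1, Sdc2, Sdc3 and Sdc4). Counts for glypicans and syndecans below cover these named genes only. A peak was counted for a gene when its midpoint lay in the gene's annotated span in the mouse build mm10 (GRCm38.p6). This rule gave 27 peaks of the 43106 in the list, 23 in glypican genes and 4 in syndecan genes. All members are protein-coding genes, of which the annotation held 21900 in all.

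DHX9 unwinds double-stranded RNA. FLASH was used to map the RNA it binds: ultraviolet light ties protein to RNA, the protein is pulled down with an antibody, and the RNA that comes with it is sequenced with its strand kept. The cells were neural progenitor cells grown from WT26, a feeder-independent male embryonic stem cell line of C57BL/6x129sV background, and were kept in medium with EGF and FGF. All came from this 1 cell line, with no treatment or genotype that differed between groups. The groups were a rabbit antibody to DHX9 (2 biological replicates, A and B) and rabbit IgG as background (2 biological replicates, A and B). The 4 libraries together gave 1 list of peaks, so no value per library, depth or replicate error was available, and no test was made. Counts and densities below therefore describe the list and say nothing about their spread between replicates. Where no peak was called, weak binding and little RNA made from the gene cannot be told apart. Of 12 neural progenitor markers, 7 carried a peak (58.3%, where 18.9% of all protein-coding genes did). The most lay in the transcription factor genes Nfia (339 peaks) and Nfib (206), the glial glutamate transporter gene Slc1a3 (122) and the receptor phosphatase gene Ptprz1 (64). Peaks that lay in no other gene numbered 273 in Nfia, 77 in Nfib, 122 in Slc1a3 and 51 in Ptprz1. Sox2, Nes, Pax6, Hes1 and Msi1 had none.

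Glypicans are tied to the outer face of the membrane by a lipid anchor, and syndecans cross the membrane with a short cytoplasmic tail. Through their chains both families bind growth factors such as FGFs and morphogens of the Wnt and Hedgehog families, and present them to signalling receptors. In the nervous system they are known for roles in progenitor growth, axon guidance and synapse formation.

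Peaks lay in 4 of the 8 genes (50%), where 18.9% of all protein-coding genes had at least 1 peak. The 4 were the glypicans Gpc6 with 20 peaks and Gpc5 with 3, and the syndecans Sdc3 with 3 and Sdc2 with 1. Gpc1, Gpc2, Sdc1 and Sdc4 had 0. At least 3 peaks were found in 3 members, where 11.4% of all protein-coding genes had as many. The members had a median span of 31.2 kb, from 6.37 kb in Gpc2 to 1433 kb in Gpc5, against a median of 17.1 kb over all protein-coding genes, so these shares are not matched on length. All 27 peaks lay on the plus strand. The table of promoters lists Gpc5 and Sdc3 on the plus strand, so their peaks lay on the sense strand. Gpc1, Gpc6 and Sdc2 are not in that table, and it lists Sdc1 on the plus strand and Gpc2 and Sdc4 on the minus strand.

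**Figure D1:**
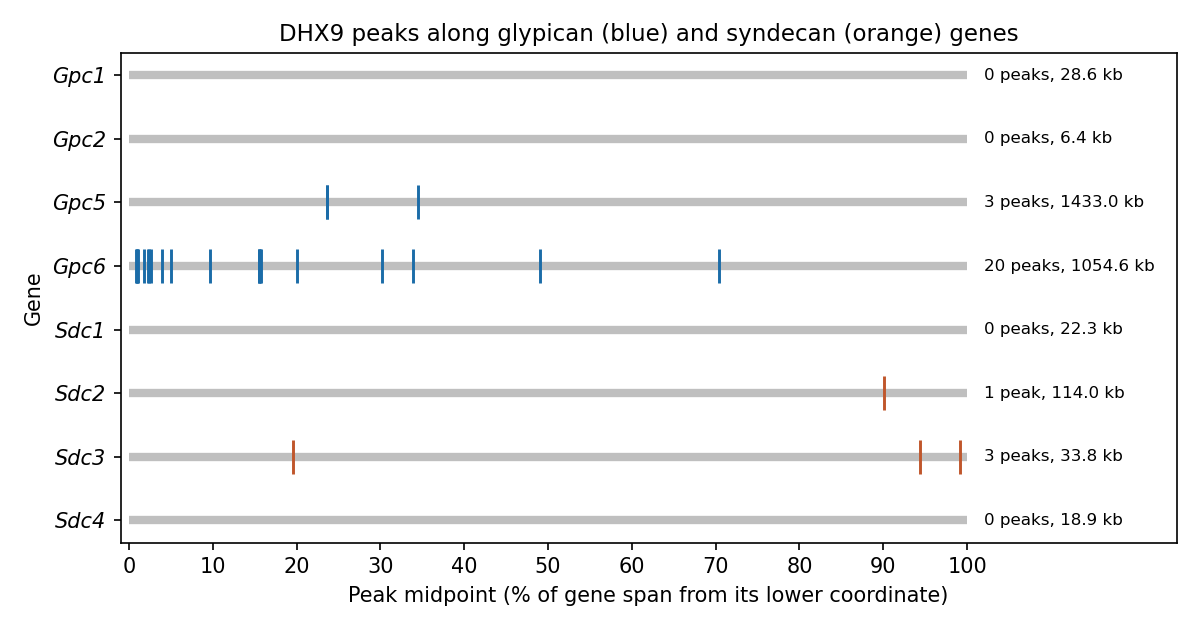
Each grey bar is 1 gene, scaled to its full span from lower to higher coordinate (x axis, percent of span), and each tick is the midpoint of 1 DHX9 peak, blue in glypicans and orange in syndecans. The 20 ticks of Gpc6 crowd toward the low end of the gene, the single tick of Sdc2 and 2 of the 3 ticks of Sdc3 lie near the high end, and 4 genes have no tick.

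Gpc6 encodes a glypican that astrocytes release and that promotes the maturation of synapses. It spans 1055 kb of chromosome 14 (chr14:116924920-117979529) and held 20 peaks, more than 87.8% of the 4133 protein-coding genes with a peak. By density it ranked low, because the gene is long. It had 1.90 peaks per 100 kb, and only 14.5% of protein-coding genes with a peak had a lower density. The median such gene had 10.2 peaks per 100 kb. Among the 20 protein-coding genes nearest to it in span (966 to 1106 kb), 12 had a peak, the median number was 2 and 5 genes had more peaks than Gpc6. The highest of these was Auts2, a neurodevelopmental gene, with 281 peaks. Closest to Gpc6 in density among them were Robo1, an axon guidance receptor gene that binds heparan sulfate-dependent Slit ligands, with 20 peaks (1.96 per 100 kb), the adhesion gene Sdk1 with 22 (2.26 per 100 kb) and the receptor kinase gene Erbb4 with 25 (2.32 per 100 kb).

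The peaks of Gpc6 were concentrated at its low-coordinate end, which is the 5′ end for RNA of the strand that holds the peaks. The first peak lay 9.35 kb into the gene and was followed by 3 more within 2.17 kb (chr14:116934180-116936350). These 4 peaks were 182, 123, 380 and 115 bases long, and the 380-base one was the longest in any member. A further 6 peaks lay between 19.3 and 52.5 kb, so the first 100 kb held 10 of the 20. The first 10% of the span held 11 peaks and the next 10% held 4. Beyond that, peaks were single and far apart, at 211.1, 318.1, 358.0, 517.6 and 742.7 kb. The last 312.0 kb of the gene had none. The median distance between neighbouring midpoints was 7892 bases, where even spacing over the span would give 52.7 kb. Of the 19 distances, 5 were under 1 kb and 9 were over 10 kb.

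**Figure D2:**
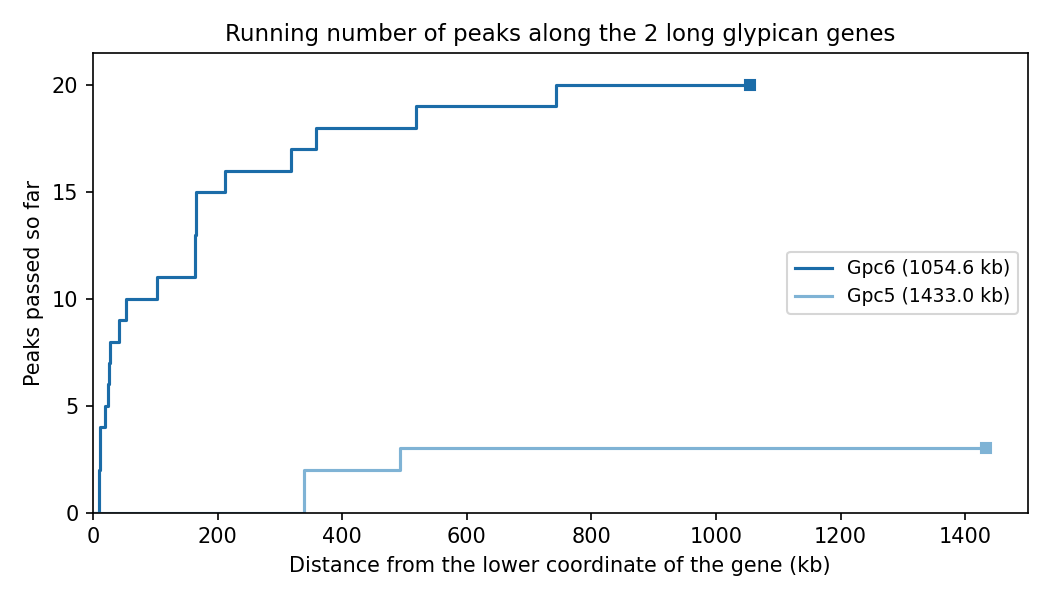
The lines count peaks (y axis) passed while moving from the lower coordinate of each gene (x axis, kb), dark blue for Gpc6 and light blue for Gpc5, and the squares mark the end of each gene. Gpc6 had gained 15 of its 20 peaks by 165.7 kb, while Gpc5 had its first peak at 338.4 kb and its last at 493.5 kb.

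This position was compared with that of other long genes, a comparison chosen after the values of Gpc6 were seen. In the 43 protein-coding genes of at least 500 kb with at least 10 peaks, the share of peaks in the first 10% of the span was read in the direction of the strand with more peaks. Gpc6 had 55.0% of its peaks there. The other 42 genes had a median of 24.7%, with a 25th percentile of 2.86% and a 75th percentile of 35.5%. Of these, 3 overlap and hold the same peaks, and with genes of the same peaks counted once the median of the 40 left was 25.4%, with percentiles of 2.14% and 37.2%. A higher share was found in 4 of them, up to 71.4% in Nkain2. The first 50% of the span held 95.0% of the peaks of Gpc6 and a median of 85.2% of those of the other genes. The share in the first 10% of Gpc6 thus lay above the 75th percentile of these genes but was not the highest.

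A second group of 4 Gpc6 peaks also lay in another annotated gene. They fell between 163.5 and 165.7 kb into Gpc6 (chr14:117088264-117090715), with lengths of 221, 249, 331 and 198 bases. All 4 are longer than the median peak of the list, 153 bases. The same 4 lay in Gm41246, a predicted long noncoding RNA gene of 3.48 kb within Gpc6 (chr14:117087366-117090849). It covers 0.330% of the span of Gpc6 and held 20% of its peaks. Gm41246 is not in the promoter table, so its strand was not used here, and these peaks could be counted for either gene. A single further peak, 113 bases long and also on the plus strand, lay in the predicted noncoding gene Gm52112. The other 15 peaks lay in no other gene, which gives 1.54 per 100 kb of the 975.8 kb of Gpc6 that no other gene shares.

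Gpc5 encodes another neural glypican and is the neighbour of Gpc6 on chromosome 14 (chr14:115092201-116525192). It is the longer of the pair, at 1433 kb, and held 3 peaks. Of these, 2 lay 694 bases apart at 338.4 and 339.1 kb, and 1 lay at 493.5 kb. They were 92, 96 and 88 bases long, all shorter than 122 bases, the 25th percentile of the list. The remaining 939.5 kb toward the high end had no peak. The density was 0.209 per 100 kb, and 0.556% of protein-coding genes with a peak had a lower one. Of the 20 genes nearest in span (1230 to 1643 kb), 11 had a peak, with a median of 1, and 3 had more than Gpc5. Gpc6 was 9.06 times as dense as Gpc5. The stretch of 399.7 kb between the 2 genes held 0 peaks. The first 10% of the span, where Gpc6 held 11 of its peaks, held 0 in Gpc5.

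On the low side of Gpc5 the nearest peaks lay at a microRNA cluster. Between 47.9 and 51.2 kb before the start of Gpc5 there were 5 peaks, all on the plus strand, the strand of Gpc5. By their midpoints, the peaks within 50 kb of Gpc5 lay in no gene of the RefSeq annotation used. When any overlap on the same strand was counted, 3 of the 5 covered part of 3 of the 6 hairpins of this cluster, Mir17, Mir20a and Mir19b-1, and no base of Mir18, Mir19a or Mir92-1. Of all 1005 hairpins in the RefSeq table, 44 (4.38%) overlapped a peak. The 6 hairpins lie close together on 1 precursor RNA, so they are not independent. This overlap was looked up after the peaks around Gpc5 had been seen. The hairpins are printed because no sequence under a member's own peak was in the tables used. Sequences are from RefSeq (GRCm38.p6), 5′ to 3′, with bases under a DHX9 peak in capitals. Mir17 is chr14:115043671-115043754, Mir20a is chr14:115044157-115044263 and Mir19b-1 is chr14:115044305-115044391, all on the plus strand.
Mir17: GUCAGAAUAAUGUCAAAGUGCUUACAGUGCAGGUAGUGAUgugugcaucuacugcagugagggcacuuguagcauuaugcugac
Mir20a: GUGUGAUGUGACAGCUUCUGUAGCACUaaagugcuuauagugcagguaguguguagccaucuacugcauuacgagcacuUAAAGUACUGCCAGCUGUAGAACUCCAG
Mir19b-1: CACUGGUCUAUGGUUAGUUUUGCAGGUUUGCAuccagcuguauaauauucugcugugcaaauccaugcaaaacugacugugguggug

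In Mir17 the peak covered 40 of 84 bases, from the first base on, and included all 23 bases of the mature miR-17-5p. In Mir20a, 2 peaks covered 55 of 107 bases, at both outer ends, and left nearly all of miR-20a-5p uncovered, with 1 base of 23 under a peak. In Mir19b-1 the covered part was the first 32 of 87 bases, with 17 of the 23 bases of miR-19b-1-5p. Gpc1 holds a hairpin of its own, Mir149, and Gpc6 holds Mir6239. Neither carried a peak.

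Sdc3, the syndecan most associated with neural tissue, was the densest member. It spans 33.8 kb of chromosome 4 (chr4:130792537-130826318) and held 3 peaks, or 8.88 per 100 kb. Of protein-coding genes with a peak, 46.6% had a lower density. Its density was 4.68 times that of Gpc6, although it rests on 3 peaks. Of the 20 genes nearest in span (33.7 to 33.9 kb), 5 had a peak, with a median of 0, and 2 had more than Sdc3. The first peak lay 6.60 kb into the gene and was 267 bases long (chr4:130798999-130799265). The second, of 161 bases, lay at 94.4% of the span (chr4:130824342-130824502). The third, of 109 bases, lay at 99.1%, with its midpoint 297 bases before the annotated end (chr4:130825967-130826075). Exons were not used here, so peaks in introns and in exons could not be told apart.

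Sdc2, a syndecan known for its part in dendritic spine formation, held 1 peak in 114.0 kb of chromosome 15 (chr15:32920723-33034721). The peak was 104 bases long and lay at 90.1% of the span (chr15:33023416-33023519). This gives 0.877 per 100 kb, a density below which 6.24% of protein-coding genes with a peak lie. Gpc6 was 2.16 times as dense. Of the 20 genes nearest in span, 7 had a peak and 5 had more than 1. With 1 to 3 peaks in Sdc2, Sdc3 and Gpc5, a single peak more or less would change their densities considerably.

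**Figure D3:**
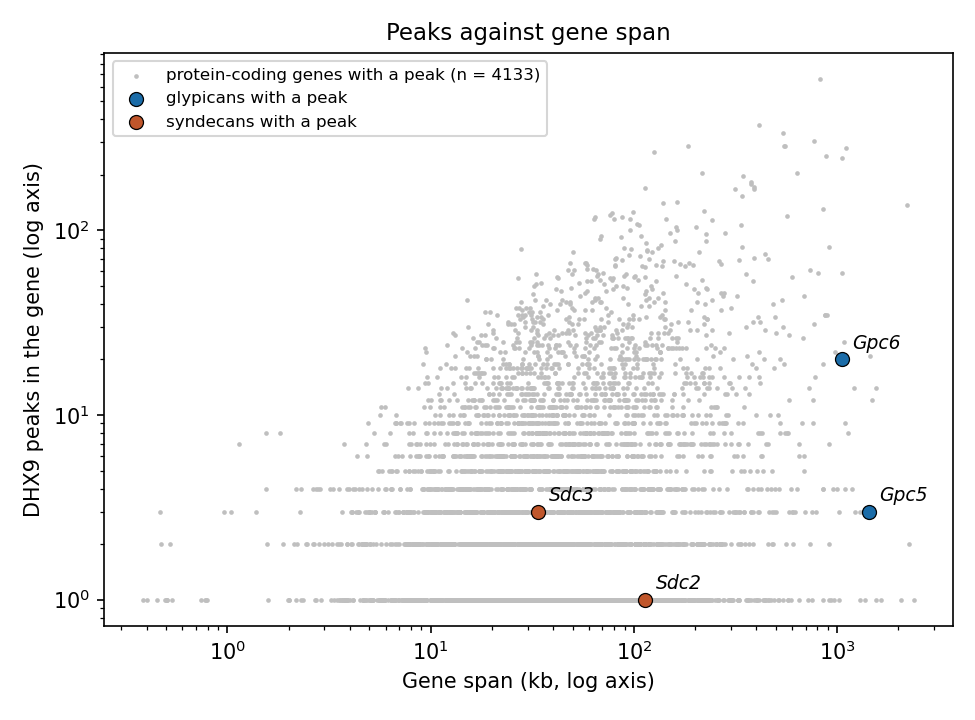
Grey points are the 4133 protein-coding genes with a peak, with the gene span in kb (x axis, log) and the number of DHX9 peaks (y axis, log), and coloured points are the members with a peak. Gpc6 (20 peaks) and Gpc5 (3 peaks) lie among the longest genes, while Sdc3 has as many peaks as Gpc5 in a far shorter span.

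The other 4 members had no peak. Gpc1, a glypican abundant in brain, spans 28.6 kb of chromosome 1 (chr1:92831645-92860211), and the nearest peak lay 158.1 kb away, in the kinesin gene Kif1a. Gpc2, a glypican of developing neurons, is the shortest member at 6.37 kb (chr5:138273657-138280026) and lies wholly within the annotated span of the cohesin gene Stag3, which also had 0 peaks. The nearest peak to Gpc2 lay 57.4 kb away, the first of 4 that lie in the 61.9 kb between Gpc2 and its neighbour Pvrig. Sdc1, an epithelial and plasma cell syndecan, spans 22.3 kb (chr12:8771396-8793716). Sdc4, a syndecan of focal adhesions, spans 18.9 kb (chr2:164424247-164443188), and its nearest peak was 310.1 kb away. Genes of like span often had no peak either. Of the 20 nearest in span, 4 had a peak for Gpc1, 3 for Gpc2, 5 for Sdc1 and 6 for Sdc4.

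The protein-coding neighbours of the members mostly had no peak. Sdc1, itself without a peak, lies between Pum2, which encodes an RNA-binding protein that represses messenger RNAs, and Laptm4a, which encodes a lysosomal membrane protein. Pum2 held 27 peaks (0.344 per kb), all on the plus strand, and Laptm4a held 5. The 18.8 kb between Pum2 and Sdc1 held 0 peaks. On the high side of Sdc3, Laptm5 had 0 peaks. The neighbours of Gpc1 (Otos and Dusp28), Gpc2 (Gal3st4 and Pvrig), Sdc2 (Sema5a and Cpq) and Sdc4 (Rbpjl and Sys1) had no peak, and neither had Slitrk5 or Dct on the outer sides of Gpc5 and Gpc6.

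Genes that make, trim or read heparan sulfate were counted in the same way, beside the 18.9% of all protein-coding genes with a peak. These lists have median spans of 38.7 to 83.2 kb, longer than the 17.1 kb of all protein-coding genes, so their shares are not matched on length. Of 27 genes for chain synthesis and sulfation, 9 had a peak (33.3%). Hs3st5, a 3-O-sulfotransferase gene, had 69 peaks in 327.8 kb, the polymerase gene Ext1 had 23, Xylt1, which starts the chain, had 13 and the linker enzyme gene B3gat3 had 5. The 6-O-sulfotransferase genes Hs6st1, Hs6st2 and Hs6st3 had none. Ext2, whose product acts together with that of Ext1, had none either. Of 9 genes for removal of chains, sulfates or core proteins, 4 had a peak (44.4%), with 3 each in the sulfatase gene Sulf2 and the protease gene Mmp14 and 1 each in Adam10 and Adam17. Notum, also in this list, had none.

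Among 15 other proteoglycan core protein genes, 8 had a peak (53.3%). The genes with the most peaks encode matrix proteoglycans. Vcan had 29 peaks, Ncan 18, Agrn 12, of which 10 lay in no other gene, and Bcan 11. Of these, Agrn carries heparan sulfate and the others chondroitin sulfate. Each exceeded Sdc3 in density, with 33.1 per 100 kb in Vcan, 64.8 in Ncan, 37.2 in Agrn and 75.1 in Bcan. Of 11 genes for cytoplasmic partners of syndecans, 7 had a peak (63.6%). These were led by the kinase gene Fyn with 65, the scaffold gene Cask with 16, the kinase gene Src with 13 and Cttn, for the actin regulator cortactin, with 11. Sdcbp, which encodes syntenin, the binder of the syndecan tail, had none.

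Of 25 genes for ligands and receptors that depend on heparan sulfate, 10 had a peak (40.0%). Of these 10, 9 had a peak in no other gene, as did 3887 of the 4133 protein-coding genes with a peak. Ptn encodes pleiotrophin, a growth factor that binds syndecan 3, and held 116 peaks in 95.3 kb, all in no other gene. The related factor gene Mdk had none. Fgfr1, an FGF receptor gene, had 33 peaks, 17 of them in no other gene, whereas Fgfr2, Fgfr3 and Fgfr4 had none. Ptprs, a receptor phosphatase gene whose product binds heparan sulfate chains, had 30. Robo1 had 20, the same number as Gpc6.

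**Figure D4:**
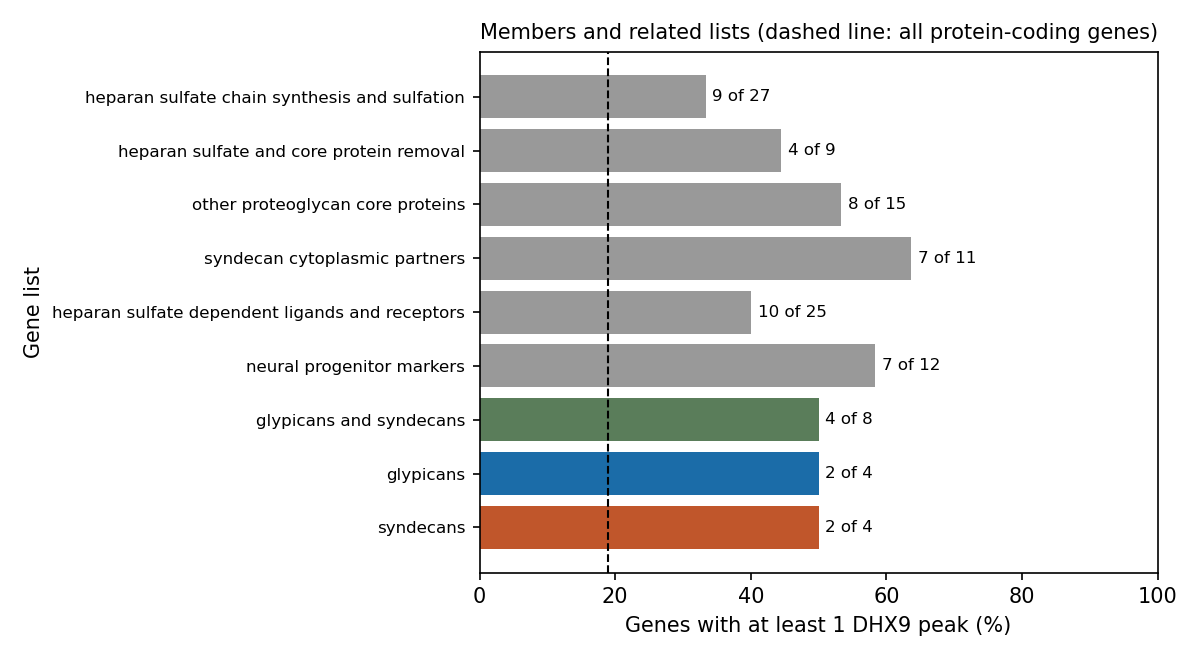
Bars give the percent of genes in each list with at least 1 DHX9 peak (x axis), with counts beside them, in grey for related lists and in colour for glypicans, syndecans and both together. The dashed line is the 18.9% of all protein-coding genes with a peak, and the bars run from 33.3% for chain synthesis and sulfation to 63.6% for syndecan cytoplasmic partners, with 50% for the members.

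The peaks of the members were short. The lengths of all 27 ran from 88 to 380 bases with a median of 119, against a median of 153 over the whole list. Only 9 of the 27 (33.3%) were at least as long as that median, where 50.6% of all peaks were. With only those longer peaks, Gpc6 kept 7 and Sdc3 kept 2, while Gpc5 and Sdc2 had 0. The 7 of Gpc6 include the 4 that also lay in Gm41246 and could be counted for either gene. So 2 of the 8 genes had a longer peak, where 14.1% of all protein-coding genes kept one.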

How the data were processed

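The authors deposited 1 peak list for the 4 libraries, made with PEAKachu per the file itself. It gives a chromosome, start, end and strand per peak and no score, count or depth. The submitters' processing notes name the aligner Bowtie2 (version 2.2.6) with 2 builds, mm10 and hg19, and mm10 is the mouse one. How PEAKachu was set and how reads with several possible places were treated is not given in the sources used here, which could affect peaks in paralogs or repeats.

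Genes came from a RefSeq table of GRCm38.p6 (49980 genes with a chromosome), which gives spans without exons. Gene strand was taken from a RefSeq promoter table, which lists 5 of the 8 members. No genome sequence was used. Peak midpoints were assigned to every gene span that holds them with Python 3.11.15 and pandas 2.3.3, and the assignment was tested on simulated peaks. Distances run from the lower coordinate. No test, resampling or interval was used, since there are no values per library.

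The members and lists were chosen with earlier results of these data known. Named genes were the members, genes that overlap a member, the nearest protein-coding gene on each side, up to 4 genes per list with the most peaks, and the 3 genes most like Gpc6 in density among the 20 nearest in span (10 shorter and 10 longer). Of the genes this rule takes, 1 is not reported here. The hairpins, the position in other long genes and any further gene named were picked with their values in view. Alternatives were longer peaks, peaks within 50 bases merged, any overlap of at least 1 base, peaks in no other gene, the majority strand only, the unshared span, and at least 3 peaks.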

Additional observations from a re-analysis of the deposited data

How the results depend on the processing

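Of 181 values recomputed under the alternatives, 167 stayed within 1.5 times the reported value, or within 5 percentage points for positions, and 14 moved. Merging, any overlap, peaks in no other gene, the majority strand and the unshared span moved none of the values recomputed under them. Counting long genes with the same peaks once, a setting chosen after seeing the data, moved none either. Many of the 167 values could not have moved. All 27 member peaks lay on the plus strand, and no neighbouring member peaks lay within 50 bases of each other. The 0 counts of Gpc1, Gpc2, Sdc1 and Sdc4 could not change under settings that only remove or join peaks. The 167 are therefore no measure of how stable the results are. With the longer peaks (153 bases, the median, or more), the members with a peak fell to 2. Peaks fell to 0 in Gpc5 and Sdc2 and to 7 in Gpc6 (0.664 per 100 kb, with a median position of 15.5% of the span in place of 7.33% and a median spacing of 1224 bases in place of 7892). The median position in Sdc3 became 57.0% in place of 94.4%, from 2 peaks. The list for removal of chains and core proteins fell to 1. At least 3 peaks gave 5 genes for chain synthesis, 2 for removal and 2496 protein-coding genes. Each of these settings keeps fewer peaks or genes by construction. No value could be had for position, strand or spacing in genes left with too few peaks, nor for Gpc2 without its shared span. No paired analysis was possible because the list gives no values per library, and no replicate could be left out for the same reason.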
